A study of Caenorhabditis elegans with 2 samples.

Results

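Chromatin immunoprecipitation followed by sequencing (ChIP-seq) of FKH-10 carrying an eGFP tag, made from late embryonic animals of the nematode Caenorhabditis elegans, was examined at 48 nuclear genes of mitochondrial respiration. The genes came from a list of 48 symbols, and 48 of 48 were present among the 19973 nuclear protein-coding genes of the Ensembl annotation of WBcel235. They comprise 14 subunits of complex I, 5 of complex II, 7 of complex III, 2 genes for cytochrome c, 7 subunits and 4 assembly factors of complex IV, and 9 subunits of complex V. FKH-10 is a transcription factor of the forkhead family, and the study asked where the tagged protein lies on the genome.

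The series holds 1 group of 2 biological replicates, so no condition was compared with another and no test between groups was possible. Both replicates were whole late embryonic animals, males and females pooled, of unknown age, of the strain labelled OP337. Its genotype label reads unc119(ed3);wgIs377, an insertion that carries fkh-10 joined to TY1, EGFP and FLAG tags together with unc119. The strain and insertion numbers in the label differ from each other, and no source used here names the promoter that drives the transgene. A library from animals without the tag was not analysed here. In whole animals, binding in few cells and weak binding in many cells cannot be told apart.

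Mitochondrial respiration passes electrons from NADH through complex I, or from succinate through complex II, to ubiquinone, then through complex III and cytochrome c to complex IV, which reduces oxygen. Complexes I, III and IV pump protons, and complex V, the ATP synthase, uses the resulting gradient to make ATP. Most subunits are encoded in the nucleus and imported, and a few of complexes I, III, IV and V are encoded in mitochondrial DNA. In the worm this pathway is well known from mutants, such as the long-lived isp-1 and nuo-6 mutants and the oxygen-sensitive mev-1 and gas-1 mutants.

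The DNA under some of the summits is shown first, because every result below is a position and a height of such a summit. The regions at cyc-2.1, nduf-2.2 and asg-2 are 3 of the 6 highest pooled summits near a listed gene. The region at cox-6B was added after its values were seen, since its thresholded summit lies far from the 5′ end of the gene model. Each region is 201 bp long on ce11, read 5′ to 3′ on the strand of the gene from the RefSeq genome of WBcel235, and capitals mark the 21 bases centred on the summit. The cyc-2.1 region is chrIV:4748539-4748739 on the minus strand. The nduf-2.2 region is chrIII:6464352-6464552, that of asg-2 chrX:6840952-6841152 and that of cox-6B chrIII:2785953-2786153, all on the plus strand.
cyc-2.1: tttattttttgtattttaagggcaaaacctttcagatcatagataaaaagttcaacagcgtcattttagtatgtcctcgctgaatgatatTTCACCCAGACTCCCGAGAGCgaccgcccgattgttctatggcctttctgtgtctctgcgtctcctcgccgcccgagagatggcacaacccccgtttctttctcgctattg
nduf-2.2: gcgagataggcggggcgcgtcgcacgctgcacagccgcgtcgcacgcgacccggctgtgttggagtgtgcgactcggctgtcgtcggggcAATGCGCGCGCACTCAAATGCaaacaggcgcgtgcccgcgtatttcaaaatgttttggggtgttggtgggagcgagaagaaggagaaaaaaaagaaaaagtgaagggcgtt
asg-2: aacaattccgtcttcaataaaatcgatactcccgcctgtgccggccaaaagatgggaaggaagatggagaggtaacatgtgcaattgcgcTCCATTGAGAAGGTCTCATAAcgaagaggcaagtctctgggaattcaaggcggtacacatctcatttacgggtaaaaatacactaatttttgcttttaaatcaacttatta
cox-6B: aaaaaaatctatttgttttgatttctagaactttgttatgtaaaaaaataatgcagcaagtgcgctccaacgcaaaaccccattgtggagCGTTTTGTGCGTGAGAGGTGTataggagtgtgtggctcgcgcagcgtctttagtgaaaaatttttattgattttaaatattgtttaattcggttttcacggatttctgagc
The G and C content of these regions was 45.8% at cyc-2.1, 59.7% at nduf-2.2, 41.3% at asg-2 and 36.3% at cox-6B. None of the 4 regions holds the forkhead core, which was searched on either strand as GTAAACA, also as GTAAATA, also as ATAAACA and also as ATAAATA.

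Summits of 4 deposited ce11 peak lists were counted in a window from 1000 bp upstream to 500 bp downstream of each gene's 5′ end. The thresholded list holds 378 peaks, of which 358 are nuclear, and is the authors' optimal list by the irreproducible discovery rate. The pooled list (7443 peaks) and the lists of replicate 1 (27900 peaks) and replicate 2 (30000 peaks) are relaxed lists that by their names hold peaks and background. Peak heights are in the authors' units, with no scale stated by any source used here, so heights are compared only within a list. Read depth is unknown.

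A thresholded summit lay in the window of 2 of the 48 genes (4.17%), cox-5A and cox-5B, both subunits of complex IV, against 0.969% of the 19925 other nuclear protein-coding genes. The pooled list gave 15 genes (31.2% against 13.2%). In replicate 1 a summit lay at 28 genes (58.3% against 39.6%), and in replicate 2 at 33 genes (68.8% against 39.9%). Both replicates had a summit at 21 genes (43.8% against 19.9%), and neither at 8 (16.7% against 40.4%). A summit in replicate 1 only was at 7 genes (14.6% against 19.7%) and one in replicate 2 only at 12 (25% against 20%).

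**Figure D1:**
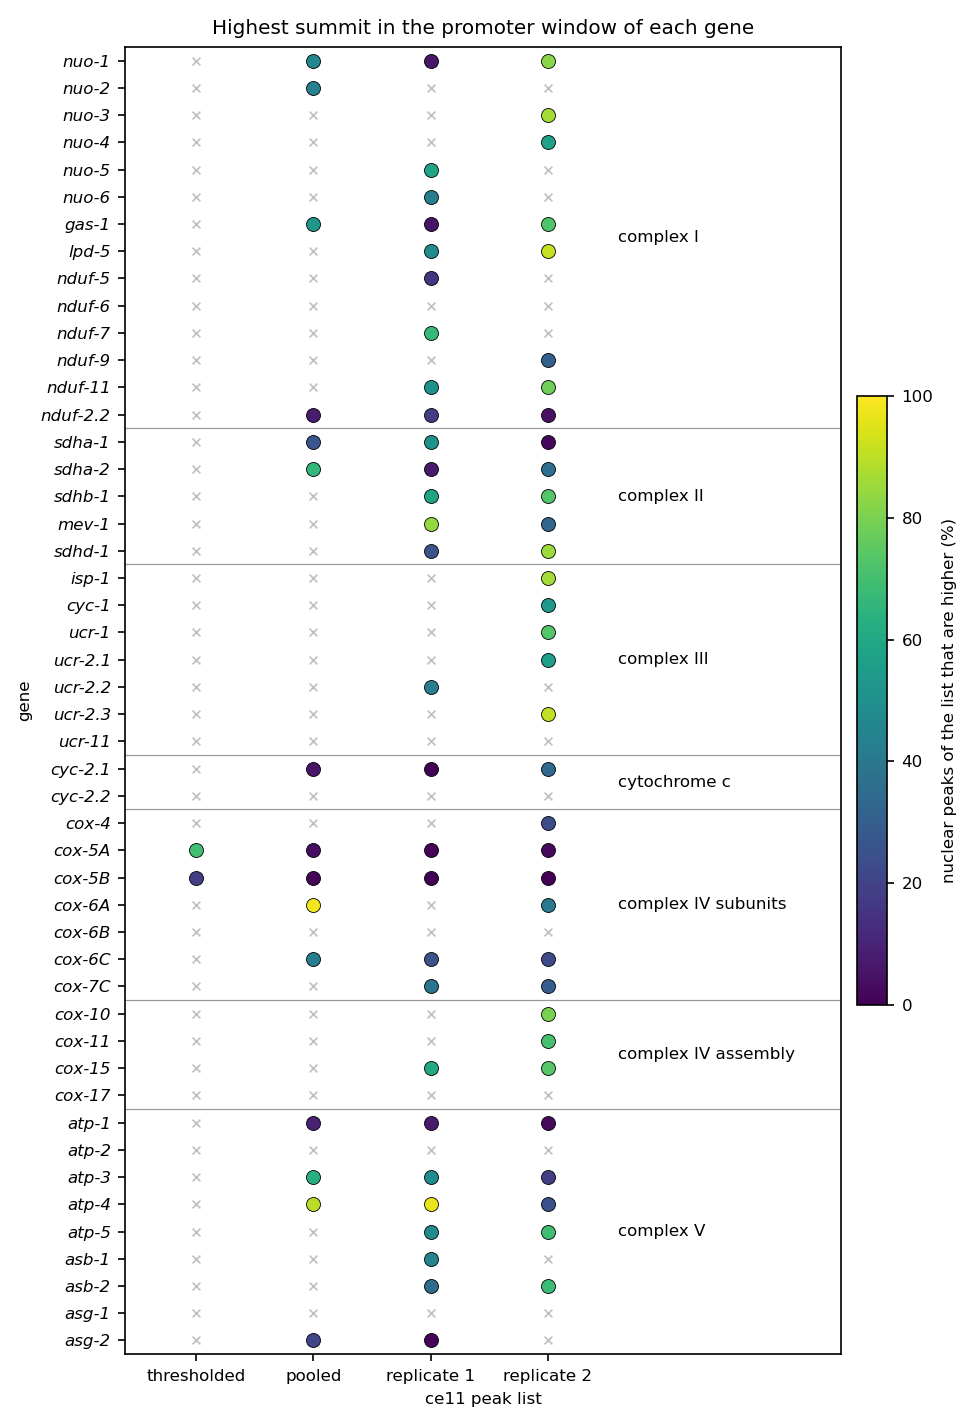
Highest summit in the promoter window of each of the 48 genes (rows, grouped by complex) in the 4 ce11 peak lists (columns). Colour gives the share of the list's nuclear peaks that are higher (%), and a cross marks no summit. Dark points recur across the pooled and both replicate columns at cox-5B, cox-5A, atp-1 and nduf-2.2. Complex III, with 7 genes, has no point in the pooled column, and 13.2% of other genes have a pooled summit.

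The pooled heights of the respiration genes were much like those of other genes with a summit. The highest pooled height per gene ran from 16.3 to 58.97 with a median of 20.03 over the 15 genes, against a median of 20.2 over the 2635 other genes with one. Of the 15, 7 exceeded that median and 5 exceeded the upper quartile of the other genes, 24.8. The medians in replicate 1 were 10.3 and 10.1, and in replicate 2 they were 6.51 and 7.22.

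Among the strongest peaks the respiration genes were few in number, but their share was above that of other genes. The exception was the 100 highest peaks of replicate 1, which held none of them. Counting the 500 highest nuclear peaks of the pooled list, 3 genes (6.25%) had a summit, against 1.34% of other genes, and among the 1000 highest 5 genes did (10.4% against 2.62%). Among the 378 highest of replicate 1 the genes were cox-5B, cox-5A, cyc-2.1 and asg-2 (8.33% against 0.903%). The same number of replicate 2 peaks held 1 gene, cox-5B (2.08% against 0.908%). At 5000 peaks of replicate 2 the share (10.4%) was close to that of other genes (8.83%). These curves were computed after the other values had been seen.

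**Figure D2:**
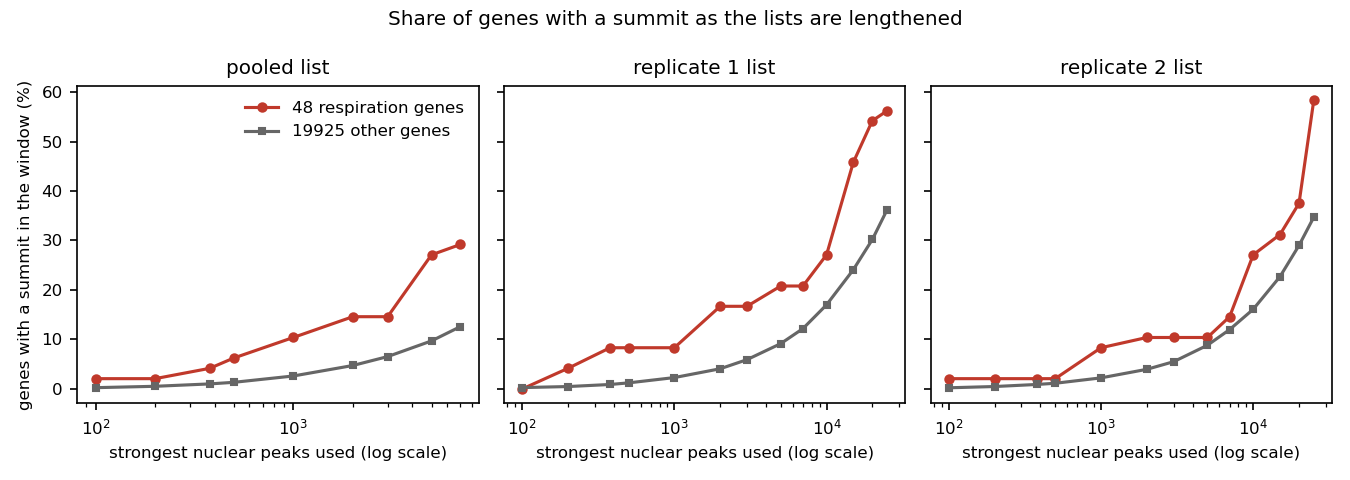
Share of genes with a summit in the window (%) as each list is lengthened from its highest nuclear peak downward (log scale), for the 48 respiration genes and the 19925 other genes. The pooled curve of the respiration genes is above the other at every length drawn, the replicate 1 curve at every length but the first, 100 peaks, where it is at 0, and the replicate 2 curve comes near the other at 5000 peaks, 10.4% against 8.83%.

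Complex IV, cytochrome c oxidase, held both thresholded genes. Of its 7 subunit genes, 4 had a pooled summit (13.2% of other genes) and 4 had one in both replicates (19.9%). Of its 4 assembly factor genes, none had a pooled summit and 1 had one in both replicates. The gene cox-5B (WBGene00000371, I:9788725-9790050, plus strand), for subunit 5B, had a thresholded summit 56 bp downstream of its 5′ end, in an untranslated exon. Its height was 58.97 in the thresholded and pooled lists, 27.1 in replicate 1, at 96 bp, and 32.1 in replicate 2, at 26 bp. It was the highest of the 48 genes in each list, ranking 66 of 358 among nuclear thresholded peaks, 174 in replicate 1 and 72 in replicate 2. The gene cox-5A (WBGene00012553, III:12905491-12906619, plus strand), for subunit 5A, had its summit 318 bp upstream in intergenic DNA. The height there was 40.9 in the thresholded list, at rank 250 of 358, 23.3 in replicate 1 and 15.8 in replicate 2. The replicate summits at cox-5A lay 312 and 314 bp upstream, 2 bp apart. Replicate 2 held a further summit of cox-5A 477 bp downstream, with a height of 6.47.

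The other subunits of complex IV had lower or no summits at the 5′ end of the gene model. At cox-6C, the pooled height was 20.03 at 409 bp upstream, and the replicates gave 11.7 and 8.96, but the nearest 5′ end to the pooled summit, 391 bp away, was that of grld-1. At cox-6A the pooled height was 16.3, lower than 97.8% of the nuclear pooled peaks, at 771 bp upstream and within 100 bp of the snRNA gene F54D8.7. Replicate 1 had no summit there and replicate 2 had 6.82 and 7.34. The gene cox-7C had 10.5 in replicate 1 and 8.24 in replicate 2, at places far apart on either side of the 5′ end, and cox-4 only 8.84 and 6.66 in replicate 2. Among the assembly factors, cox-15, which acts in heme A synthesis, had 9.02 and 5.74 in the replicates. The heme O synthase gene cox-10 (5.51) and cox-11 (5.86), which acts in copper delivery, had a summit only in replicate 2, and the copper chaperone gene cox-17 had none.

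The gene cox-6B, for subunit 6B, is counted above as a gene with no summit in any list, and that count rests on its annotation. The gene model (WBGene00022170, III:2699663-2786859, plus strand) starts at 1 transcript, Y71H2AM.5.2, that spans 87197 bp. The other transcript, Y71H2AM.5.1, of 553 bp, starts 86539 bp away at position 2786202, and the coding sequence of both starts at 2786204. A thresholded summit lay 149 bp upstream of the short transcript, with a height of 55.3 at rank 84 of the 358 nuclear peaks. The replicates had 23.7 there, 225 bp upstream, and 31.3, 149 bp upstream, where 1.07% and 0.26% of the peaks of those lists were higher. That is between cox-5B and cox-5A in height in every list. With the 5′ end of any transcript in place of that of the gene model, 3 of the 48 genes had a thresholded summit, cox-5A, cox-5B and cox-6B. The same peak lies 799 bp upstream of nduc-2, a complex I gene that is not on the list, so it cannot be given to 1 gene by position alone. The positions at each cox-6B transcript were worked out after these values were seen, while the count over transcripts was among the alternatives set at the start.

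Cytochrome c carries electrons from complex III to complex IV, and its 2 genes differed. The pooled summit of cyc-2.1 (WBGene00017121, IV:4747895-4749012, minus strand) lay 373 bp downstream of the 5′ end, in an intron, with a height of 34.9. This summit was not in the thresholded list, whose lowest nuclear height was 36.6. Replicate 1 gave 26.5 at 344 bp and replicate 2 gave 7.87 at 378 bp and 6.02 at 300 bp upstream. In replicate 1 cyc-2.1 ranked 190 and was the second of the 48 genes. Its higher replicate 2 summit ranked 9989 of 29978 nuclear peaks, with 33.3% of them higher. Another thresholded summit, with a height of 83.5, lay 1050 bp upstream of cyc-2.1, 50 bp outside the window. That summit was 284 bp upstream of rpl-20, a ribosomal protein gene on the same strand that ends 111 bp before cyc-2.1. Its heights were 49.3 in replicate 1 and 35.6 in replicate 2. The paralogue cyc-2.2 had no summit in any list.

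Complex V had 4 of its 9 genes with a pooled summit, against 13.2% of other genes. That count was 2 in the upper part of the pooled list by height and 2 with the strongest peaks of either replicate alone. The gene atp-1, for the alpha subunit of the catalytic head, had 29.9 in the pooled list at 2 bp upstream. Replicate 1 had 15.6 at 65 bp upstream and 11.7 at 141 bp downstream, and replicate 2 had 15.3 at 1 bp downstream, so the summits of both fell at the 5′ end. At asg-2, for subunit g, pooled and replicate 1 summits coincided 206 bp upstream with 23.7 and 24.3, and replicate 2 had none. At atp-3, for the oligomycin sensitivity subunit, the heights were 18.2, 9.77 and 9.55, all within 55 bp of the 5′ end. At atp-4, for coupling factor 6, they were 16.6, 7.38 and 8.67, and the pooled summit lay in an untranslated exon of alh-4. Outside the pooled list, atp-5 had 9.77 and 5.91, asb-2 had 10.7 and 5.96, and asb-1, the germline form of subunit b, had 9.97 in replicate 1 alone. Neither atp-2, for the catalytic beta subunit, nor asg-1 had a summit in any list, so the partners alpha and beta of the head differed.

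Complex I, the NADH dehydrogenase, had 4 of 14 genes with a pooled summit (13.2% of other genes) and 5 with one in both replicates (19.9%). The pooled count was 2 within 500 bp to either side of the 5′ end, 2 when a summit counted only for the nearest 5′ end, and 1 with the strongest peaks of replicate 2 alone. The gene nduf-2.2, for the 49 kDa iron-sulfur subunit, had the highest of them, 30.9 pooled at 770 bp upstream, with 12.8 and 13.5 in the replicates. The nearest 5′ end to that summit was that of the dynein light chain gene dlc-1, 673 bp away. Its paralogue gas-1 had 18.9 pooled at 723 bp upstream, nearest to usp-33 at 248 bp, with replicate summits of 11.4 and 5.80 beside it and one of 16.3 in replicate 1 at 194 bp downstream. The gene nuo-1, for the flavoprotein that binds NADH, had 19.6 pooled and 15.7 in replicate 1 at the same base, 248 bp upstream, but 5.40 and 5.27 at other places in replicate 2. The gene nuo-2 had 19.9 pooled at 166 bp upstream and no summit in either replicate, which was so for no other of the 48 genes and for 0.146% of other genes.

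The other complex I genes had replicate summits only. Both replicates had one at lpd-5 (9.77 and 5.12) and nduf-11 (9.57 and 5.58), of which those at nduf-11 lay 37 bp apart. Replicate 1 alone had one at nduf-5 (13.2), nuo-6 (10.1), nuo-5 (9.12) and nduf-7 (8.67). Replicate 2 alone had one at nduf-9 (8.13), nuo-4 (6.42) and nuo-3 (5.28), and nduf-6 had none.

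Complex II, succinate dehydrogenase, also an enzyme of the tricarboxylic acid cycle, had a summit of both replicates in the window of each gene, 5 of 5 (19.9% of other genes), and was the one complex of which this was so. The flavoprotein genes sdha-1 and sdha-2 had pooled summits of 22.5 at 175 bp upstream and 17.97 at 132 bp upstream. The pooled count of 2 of 5 (13.2% of other genes) was 1 in the upper part of the list, without summits at small RNA genes, or from replicate 2 alone. At sdha-1 the replicates gave 9.61 at 326 bp downstream and 16.4 at 109 bp upstream, and the pooled summit lay within 100 bp of the snoRNA gene D2021.6. At sdha-2 they gave 15.5 at 128 bp upstream and 7.70 at 371 bp downstream. The iron-sulfur gene sdhb-1 (9.12 and 5.76) and the membrane anchor genes mev-1 (7.88 and 7.89) and sdhd-1 (11.7 and 5.33) had no pooled summit. Both sdhd-1 summits lay in an intron of ilkp-1, whose 5′ end was the nearest. The nearest 5′ end to the mev-1 summit was that of ced-9 in replicate 1 and of jmjd-4 in replicate 2. The count of 5 of 5 is thus by window and not by nearest gene. The nearest summits of the 2 replicates lay 83 bp apart at sdhd-1, 154 bp at sdhb-1 and further apart at the others, so at those others the replicates shared the window and not the place in it.

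Complex III, the cytochrome bc1 complex, had no thresholded summit (0.969% of other genes) and no pooled summit (13.2%) in the window of its 7 genes. No gene had a summit in both replicates (19.9% of other genes). A replicate 1 summit was at 1 gene (39.6% of other genes) and a replicate 2 summit at 5 (39.9%). With 7 genes, a pooled count of 0 is too small to set against 13.2%. With windows reaching 2000 bp upstream, the pooled count was 1. The highest was 10.2 in replicate 1 at ucr-2.2, for a core protein, which had none in replicate 2. The Rieske iron-sulfur gene isp-1 (5.28), the cytochrome c1 gene cyc-1 (6.58 and 5.29), ucr-1 (5.75), ucr-2.1 (6.51) and ucr-2.3 (5.14) had summits only in replicate 2, and ucr-11 had none. All 6 replicate 2 heights were below the median of other genes in that list, 7.22. The counts by complex are small, and differences between complexes were not tested.

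**Figure D3:**
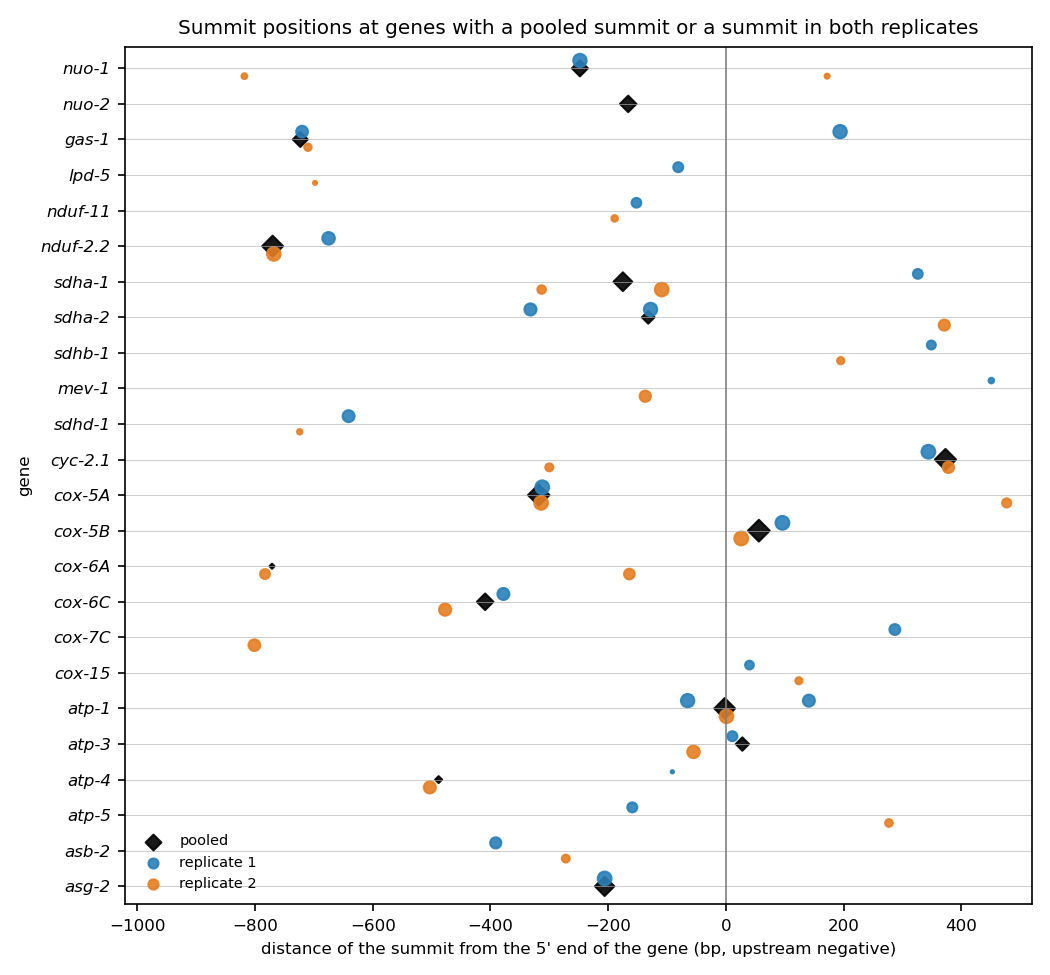
Distance of each summit from the gene's 5′ end (bp, upstream negative) at the genes with a pooled summit or with a summit in both replicates. Larger symbols stand for summits that fewer peaks of the list exceed. Summits of the 3 lists lie close together at genes such as cox-5A, cox-5B, cyc-2.1, nduf-2.2, atp-1 and atp-3. Some of these genes have a further replicate summit elsewhere in the window. The replicate summits lie apart at mev-1 and cox-7C, which have no pooled summit. They also lie apart at genes that have one, by 499 bp at sdha-2, 435 bp at sdha-1, 420 bp at nuo-1 and 412 bp at atp-4.

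The paralogues among the list were uneven in pairs. Only cyc-2.1 of the cytochrome c genes and only asg-2 of the subunit g genes had any summit. Both sdha genes and both genes of the 49 kDa subunit had pooled summits. Neither asb gene and no gene of ucr-2.1, ucr-2.2 and ucr-2.3 had a pooled summit. Most other genes had none either, as 13.2% of them had one. No source used here says how reads shared between such copies were treated.

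Most pooled summits lay upstream of the genes they were counted for, as they did at other genes. Of 15, 12 were upstream of the 5′ end (80%, against 77.6% for other genes), 8 were within 250 bp of it (53.3% against 39.5%), and 10 were intergenic. The respiration gene had the nearest 5′ end at 12 of 15, the exceptions being nduf-2.2, gas-1 and cox-6C. Counted for the nearest 5′ end only, pooled summits were at 25% of the respiration genes, down from 31.2%. For other genes the share went from 13.2% to 10.9%. In replicate 1, 60.6% of 33 summits were within 250 bp (34.8% for other genes), and in replicate 2, 39% of 41 (36.8%), where 15 lay in coding exons. For the intergenic and coding exon counts, the share at other genes was not worked out. Replicate summits in the same window came within 100 bp of each other at 11 of the 21 genes that had both (52.4%, median gap 99 bp), against 40.4% of other such genes (median 151 bp). Over all genes these were 22.9% of the 48 and 8.03% of the others.

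**Figure D4:**
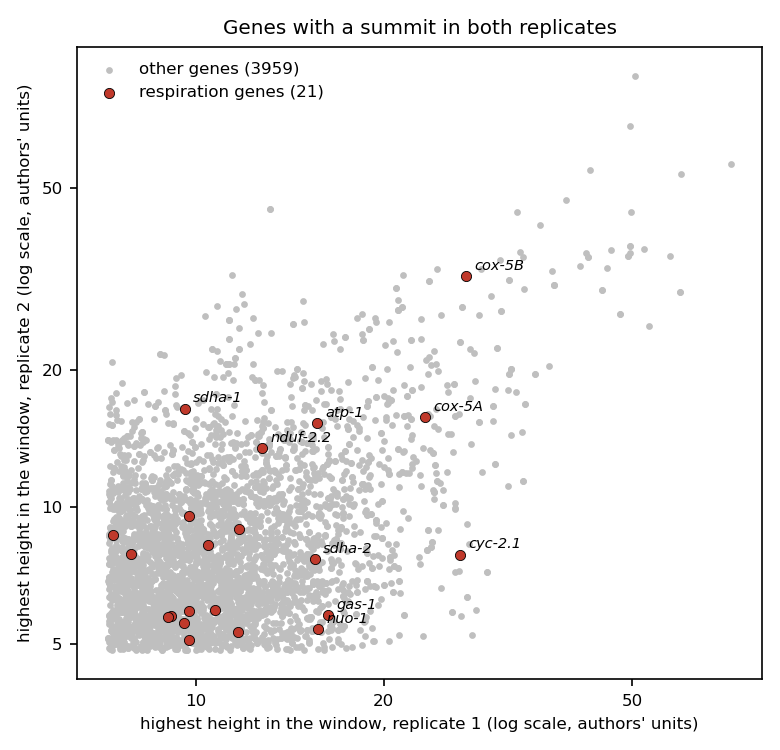
Highest height in the window in replicate 1 against replicate 2 (log scales, authors' units) for the 21 respiration genes and the 3959 other genes with a summit in both. The gene cox-5B is the highest respiration gene on both axes, 27.1 and 32.1, and most of the 21 lie among the bulk of other genes.

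The surroundings of the respiration genes differed from those of other genes, which bears on how a summit is given to a gene. A gene on the other strand started within 1000 bp upstream at 23 of 48 (47.9%), against 17.6% of other genes. Pooled summits were at 6 of these 23, against 20.6% of other genes so arranged, and at 9 of the remaining 25, against 11.7%. Many worm genes are transcribed in operons, where a downstream gene follows another on the same strand. Such a gene ended within 1000 bp upstream at 18 of 48 (37.5% against 28.8%), and of these 18, 5 had a pooled summit (11.3% of other genes). By chromosome, pooled summits were at 5 of 15 genes on I (16.8% of other genes), 3 of 12 on III (17.1%) and 3 of 6 on X (14.7%). They were at 1 of 6 on II (12.1%), 2 of 5 on IV (12.7%) and 1 of 4 on V (9.5%). The counts on each chromosome, that on X included, are too small to set against those shares.

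Just outside the window, cyc-2.1 had the nearest thresholded summit, given above. The next were at nuo-4 (2964 bp downstream), nuo-3 (3075 bp downstream), cox-11 (3677 bp upstream) and nuo-1 (6090 bp upstream), with heights of 44.96, 41.4, 46.1 and 41.9. The pooled summits nearest outside it were at nduf-7 (1063 bp upstream, 17.7), ucr-11 (1321 bp upstream, 32.7), cox-4 (996 bp downstream, 17.4), cox-10 (1597 bp upstream, 25.3) and cox-17 (1162 bp downstream, 17.6).

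The forkhead core was about as frequent at the pooled summits of respiration genes as at other promoter summits. Windows of 1501 bp at the respiration genes held 1 of the 4 core words at 40 of 48 (83.3%), against 81.1% of other genes. Searched 150 bp up and down from the summit, the core was found at 4 of 15 pooled summits (26.7%), at nduf-2.2, sdha-1, sdha-2 and atp-4, against 27.5% at 2309 summits in other promoter windows. Regions of the same length centred on the 5′ ends of all genes held one in 30.7%. None of the 2 thresholded summits held one, against 15.6% at thresholded summits in other promoter windows. In replicate 1 the share was higher, 42.4% of 33 summits against 29.8%, and in replicate 2 it was 24.4% of 41 against 26.3%. Mean G and C content over the windows was 37.1% ± 2.88 (SD, n = 48 genes), against 35.4% ± 3.54 for other genes, and around the 15 pooled summits it was 38.5%, against 38.4% elsewhere. A match of these letters is a description of the sequence and not a binding site.

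Several related lists of genes also had pooled summits more often than the 13.2% of other genes. In the tricarboxylic acid cycle and pyruvate dehydrogenase list, 10 of 18 genes had one (55.6%), with thresholded summits at idhg-1, an isocitrate dehydrogenase subunit (78.6, with 42.5 and 35.4 in the replicates), and dld-1, dihydrolipoamide dehydrogenase (52.5, with 32.6 and 17.9). Of 70 mitochondrial ribosomal protein genes 24 had one (34.3%), of 7 chaperone and protease genes 3 (42.9%), of 20 carrier and import genes 5 (25%) and of 8 superoxide and peroxide defence genes 3 (37.5%). The highest in these lists were 53.1 at mrpl-12, 46.9 at the chaperonin gene hsp-60, both thresholded, 36.3 at the ADP/ATP carrier gene ant-1.1 and 21.02 at the peroxiredoxin gene prdx-3. None of 8 coenzyme Q synthesis genes had one, and 2 of 7 other assembly and regulation genes did (28.6%), mai-1 (22.1) and mma-1 (19.1). The 81 cytoplasmic ribosomal protein genes had 48 (59.3%) and 7 thresholded genes, led by rpl-3 with 129. Pooled summits were thus not particular to the respiration genes.

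**Figure D5:**
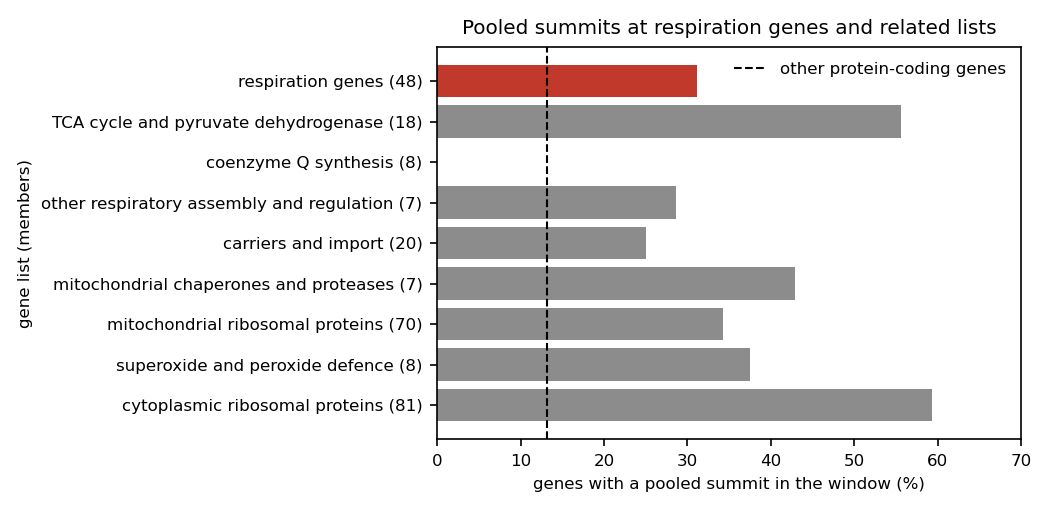
Share of genes with a pooled summit in the window (%), for the 48 respiration genes (red) and 8 related lists (grey, members in brackets), with the share of the other protein-coding genes, 13.2%, as a dashed line. The respiration genes are at 31.2%, below the tricarboxylic acid cycle (55.6%) and the cytoplasmic ribosomal proteins (59.3%), and coenzyme Q synthesis is at 0.

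Peaks on mitochondrial DNA, which encodes a further 12 protein subunits, had higher median heights than nuclear peaks in all 4 lists. Thresholded summits lay inside 11 of the 12 protein-coding genes, all but ND4L. How many of the 12 would hold a summit from the density of the 20 mitochondrial thresholded peaks alone was not worked out. This count is thus no result about the subunits. The median height over those 20 peaks was 131, against 46.03 over the nuclear ones. At ATP6, the partner of the nuclear complex V genes, the height was 245 in the pooled list, 215 in replicate 1 and 18.6 in replicate 2. At COX1, the catalytic subunit of complex IV, it was 146, 107 and 38.7, and at CYTB, the cytochrome b of complex III, 155, 86.4 and 55.2. Complex III had pooled summits inside CYTB, where summits were counted over the coding sequence and not in a window at the 5′ end. In the windows used for nuclear genes, none of its 7 listed genes had one (13.2% of other genes did), although ucr-11 had one 1321 bp upstream. The median mitochondrial height was 112 in the pooled list, 67.9 in replicate 1 and 19.8 in replicate 2, against 19.2, 9.62 and 6.80 over nuclear peaks. At ND4L, which had a summit in replicate 1 only, the height was 17.01, below cox-5B, cyc-2.1, asg-2 and cox-5A in that list, and in replicate 2 cox-5B (32.1) was above ATP6. The number of mitochondrial genomes per cell was not measured, and its part in these heights was not tested.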

How the data were processed

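Peak lists from ChIP-seq of eGFP-FKH-10 in 2 biological replicates were used as deposited, on ce11, with fragments of 150 to 350 bp per the labels. As the deposited file lists state, the authors called relaxed peaks for each replicate and for both together against a control, and derived the thresholded list from them by the irreproducible discovery rate. The deposited signal of each peak is its height as the authors' caller gave it, with no scale stated. The aligner, the caller and their versions are named by no source used here. The summit is the deposited peak start plus its offset, written 1-based. Genes came from Ensembl release 115, and summits were counted from 1000 bp upstream to 500 bp downstream of gene 5′ ends, so that 1 summit can count for neighbouring genes. Members with a thresholded or pooled summit were to be named, with the highest of each complex in each replicate, those nearest outside the window and the paralogues, and the remaining members are named so that all are accounted for. The genes, lists and windows were chosen with earlier results of these data known, and no test was made. The sequence of 1 region is not reported here. The counting was checked on simulated peaks. Python 3.11.15, numpy 2.4.6, pandas 2.3.3 and matplotlib 3.10.9 were used.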

Additional observations from a re-analysis of the deposited data

How the results depend on the processing

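In 42 alternative counts (other windows, transcript 5′ ends, nearest gene only, peak overlap, upper part of each list, no small RNA genes, 1 replicate alone, shorter replicate lists), the respiration genes' share was above that of other genes in all 42, and 33 were within 1.5 times the main count. The thresholded count of 2 became 1, cox-5B, in the upper part of the list by height. Taking the strongest peaks of a single replicate in its place gave 1 without replicate 1 and 4 without replicate 2. The pooled count of 15 became 8 without replicate 1 and 12 without replicate 2. At the length of the pooled list, replicate 1 gave 12 genes (25% against 13% of other genes) in place of 28, replicate 2 gave 8 (16.7% against 12.5%) in place of 33, and both together 5 (10.4% against 3.94%) in place of 21. The upper parts of the lists gave 15 genes for replicate 2 (31.2% against 22.7%) and 9 for both (18.8% against 8.35%). Only the nearest 5′ end left 12 pooled genes (25% against 10.9% of other genes) and 26 genes in replicate 1 (54.2% against 34.3%). The same rule left 22 in replicate 2 (45.8% against 34.9%) in place of 33, and 14 in both (29.2% against 15.8%) in place of 21. Of 63 alternative pooled counts by complex, 12 were beyond 1.5 times, among them cytochrome c (1 to 0 without replicate 1) and the complex IV assembly factors (0 to 2 with windows reaching 2000 bp upstream). The causes of these shifts were not tested beyond the shorter lists that define them. Read depth is unknown, so a gene with no summit may lie below detection.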

Other observations

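A set of 19 further nuclear complex I genes, with symbols of the ndu form, was examined after the values above were seen. Thresholded summits were at 2 of them (0.969% of the genes outside the respiration list) and pooled summits at 6 (31.6% against 13.2%). Replicate 1 summits were at 12 (63.2% against 39.6%) and replicate 2 summits at 10 (52.6% against 39.9%). The gene ndua-2 had a thresholded summit 371 bp upstream with a height of 48.7, and 21.1 and 27.1 in the replicates, which is higher than at any listed complex I gene in the pooled list. The gene nduc-2 shares the summit of 55.3 with the short transcript of cox-6B. Below these, ndua-5 had 20.6, ndua-8 had 20.3, ndub-8 had 17.1 and ndub-7 had 16.99 in the pooled list, and ndub-2, ndub-3, ndub-10 and nduv-2 had no summit in any list.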
